A study of Mus musculus with 8 samples.

Results

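Ifit1, Ifit2 and Ifit3 belong to the interferon-induced tetratricopeptide repeat (IFIT) family of antiviral genes. Their rows were taken by symbol, and they are 3 of the 24421 genes in the files. Calvarial osteoblastic cells, which are bone-forming precursors digested from the skull bone of newborn mice (0 to 3 days old, strain C57BL/6), were cultured from WT mice and from mice that lack Def6 (Def6-/-). Poly-A RNA was sequenced at day 0 and at day 12 of culture in osteogenic medium, which contained ascorbic acid and β-glycerophosphate, with 2 libraries in each of the 4 groups WT day 0, WT day 12, Def6-/- day 0 and Def6-/- day 12. Def6 was absent in all cells of the Def6-/- mice, not only in osteoblasts, and the cultures were not sorted by cell type before sequencing. The study describes the replicates as biological, but the labels do not say which mice or cultures each came from, so that p-values measure the spread between these libraries.

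Type-I interferons (IFNs) bind the receptor chains Ifnar1 and Ifnar2, and the attached Janus kinases activate the transcription factor complex ISGF3, which includes Stat2 and Irf9. ISGF3 enters the nucleus and binds interferon-stimulated response elements in the promoters of interferon stimulated genes (ISGs), among which the IFIT genes are some of the most strongly induced. IFIT proteins stay in the cytoplasm. Ifit1 binds RNA whose cap lacks the methyl group that marks host messengers and blocks its translation. Ifit2 acts against several viruses and can bind AU-rich RNA. The human protein IFIT3 binds to human IFIT1 and supports its action, which is not stated here for the mouse proteins.

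The 3 genes lie together on chromosome 19 of GRCm38, the build also called mm10, in a stretch of 99.3 kb that starts with Ifit2 and ends with Ifit1. In the GENCODE annotation vM21, Ifit2 spans 34550694 to 34576419, Ifit3 34583531 to 34588731 and Ifit1 34640871 to 34650009, all on the plus strand. Between them lie the minus strand genes Ifit1bl1 and Ifit1bl2 and the plus strand gene Ifit3b (34607970 to 34613401), a copy of Ifit3. Ifit1bl2 and Ifit1 are transcribed away from each other from start sites 128 bases apart.

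The promoter windows of the members differed in matches to a short pattern, the core of an interferon-stimulated response element. The pattern TTTCNNTTTC, or GAAANNGAAA on the other strand, was searched in RefSeq promoter windows of assembly GRCm38.p6, from 250 bases before a gene's start to 50 bases after it. Starts in this search are RefSeq starts, at 34640889 for Ifit1 and 34583529 for Ifit3, which differ from the GENCODE starts above. Ifit1 held 2 matches, beginning 104 and 85 bases before its start, and Ifit3 held 2, beginning 156 and 122 bases before its start. Printed here, 5′ to 3′, are the stretches of the plus strand that hold them, with the matches in capitals. The bases before the first listed start of Ifit2 are added, since the windows of the members differ in this pattern. Neither of the 2 windows listed for Ifit2 held a match. Variants of the pattern and sequence outside the windows were not searched, so this does not show that Ifit2 lacks such an element.
Ifit1, chr19:34640770-34640828: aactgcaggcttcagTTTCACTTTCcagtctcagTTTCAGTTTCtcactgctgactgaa
Ifit3, chr19:34583358-34583431: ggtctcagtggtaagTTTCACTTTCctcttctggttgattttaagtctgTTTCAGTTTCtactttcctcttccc
Ifit2, chr19:34550444-34550693: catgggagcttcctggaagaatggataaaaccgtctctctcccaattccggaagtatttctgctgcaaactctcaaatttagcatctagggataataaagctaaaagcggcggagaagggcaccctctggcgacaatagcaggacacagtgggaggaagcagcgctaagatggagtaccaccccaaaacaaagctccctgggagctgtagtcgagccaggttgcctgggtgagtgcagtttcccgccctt

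The same 74 bases as in Ifit3 stand before Ifit3b (chr19:34607754-34607827), where the matches begin 188 and 154 bases before the RefSeq start at 34607957. Over an aligned stretch of 218 bases, the upstream sequences of Ifit3 and Ifit3b were identical at 217. Ifit1bl2 shares both matches of Ifit1 on its own strand, since the genes start head to head, and each window of Ifit1bl1 held 1 match. Among genes that were tested and had a window, 3.65% of 9431 held at least 1 match and 0.307% held at least 2. Of 23 other interferon stimulated effectors with a window, 14 held at least 1 match (60.9%) and 7 held at least 2. A match describes letters in a window and does not show that a factor binds there.

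Between 2414856 and 3482835 reads per library were counted on genes, which is 28.8% to 35.3% of the reads of a library, and 12348 genes whose deposited CPM (reads per 1000000 reads) averaged 1 or more in some group were tested. Levels are given as normalized CPM, which are reads per 1000000 reads on genes after scaling of the libraries with TMM factors. The labels matched the reads of Def6, at 39.6 to 58.1 normalized CPM in the 4 WT libraries and at no more than 0.854 in the 4 Def6-/- libraries. Osteoblast markers were present in all groups: Col1a1, a chain of bone collagen, averaged 20282 normalized CPM for WT at day 0 and 49895 at day 12, and Bglap, which encodes osteocalcin, had no read at day 0 and averaged 6.92 for WT and 16.5 for Def6-/- at day 12. Of the 9 osteoblast markers, 5 rose from day 0 to day 12 in WT cells and 5 in Def6-/- cells at an adjusted limma p under 0.05. Of all genes tested, 12.7% and 12% rose. Only through day 12 did 2 of the 9 reach the mean CPM of 1 needed for testing, and both were among those called in each genotype.

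All 3 IFIT genes were low at day 0 and rose by day 12 in both genotypes, Ifit3 and Ifit1 by far more than Ifit2. Ifit1 was at 3.56 and 8.48 normalized CPM in the WT libraries at day 0 and at 55.1 and 110.9 at day 12. For Def6-/- it was at 1.5 and 5.79 at day 0 and at 36.5 and 49.9 at day 12. Each day 12 library was above every day 0 library, and at day 12 the WT libraries were both higher than the Def6-/- ones, while at day 0 the genotypes overlapped.

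Ifit2 was at 4.74 and 10.2 normalized CPM in WT cells at day 0 and at 28.1 and 32.2 at day 12. For Def6-/- it was at 4.89 and 7.15 at day 0 and at 19.3 and 24.3 at day 12. It had the highest mean of the 3 genes at day 0 in each genotype and the lowest at day 12.

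Ifit3 was at 1.19 and 2.83 normalized CPM in WT cells at day 0 and at 43.0 and 73.7 at day 12. For Def6-/- it was at 1.13 and 1.36 at day 0 and at 19.7 and 27.3 at day 12. These day 0 values rest on 3 and 8 reads for WT and on 3 and 4 for Def6-/-, so that Ifit3 was close to the limit of detection before differentiation. For all 3 genes replicate 2 was above replicate 1 in each of the 4 groups, and the order of the group means was WT day 12, Def6-/- day 12, WT day 0 and Def6-/- day 0, with the last 2 groups overlapping.

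**Figure D1:**
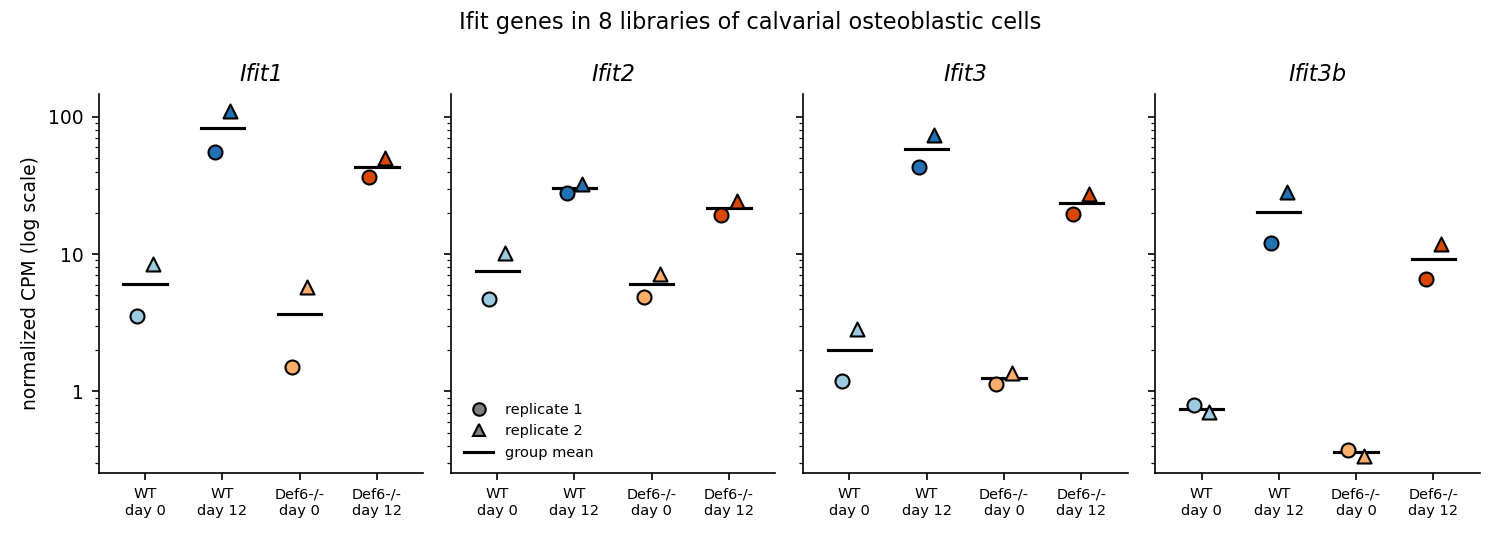
Normalized CPM (log scale) of Ifit1, Ifit2, Ifit3 and the Ifit3 copy Ifit3b in each library, by genotype and day; circles are replicate 1, triangles replicate 2 and bars group means (n = 2 libraries). Every day 12 library lies above every day 0 library, and at day 12 the WT libraries lie above the Def6-/- ones for each gene.

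Per kilobase of exon, a scale on which genes of different length can be compared, Ifit3 and Ifit1 were the most abundant at day 12. In WT cells at day 12 the level was 33.4 ± 12.4 normalized CPM per kb for Ifit3 (SD, n = 2), 31.3 ± 14.9 for Ifit1, 10.1 ± 5.80 for Ifit3b and 7.68 ± 0.741 for Ifit2. The libraries of Ifit3 and Ifit1 overlapped, as did those of Ifit3b and Ifit2, while both genes of the upper pair lay above both of the lower pair in both libraries. Compared within a library, Ifit3 was above Ifit1 in both (24.7 and 20.7 in replicate 1, 42.2 and 41.8 in replicate 2). Ifit3b was below Ifit2 in replicate 1 and above it in replicate 2. For Def6-/- at day 12 the levels were 16.3 ± 3.57 for Ifit1, 13.5 ± 3.09 for Ifit3, 5.55 ± 0.907 for Ifit2 and 4.63 ± 1.90 for Ifit3b, with the same division into pairs. At day 0 the order in WT cells was Ifit1 at 2.27 ± 1.31, Ifit2 at 1.91 ± 0.991 and Ifit3 at 1.15 ± 0.665 normalized CPM per kb. Neighbours in this order overlapped between the WT libraries, while the order held within each of them. In Def6-/- cells at day 0 the order differed, with Ifit2 at 1.53 ± 0.407, Ifit1 at 1.37 ± 1.14 and Ifit3 at 0.714 ± 0.0947. There Ifit1 was the lowest of the 3 in replicate 1, at 0.566 against 0.647 for Ifit3, and the highest in replicate 2, at 2.18.

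From day 0 to day 12 in WT cells, Ifit3 rose by 4.31 on the log2(CPM + 1) scale (SE 0.39, 95% interval 3.43 to 5.19; limma, adjusted p = 0.000199). Ifit1 rose by 3.59 (SE 0.55, 2.35 to 4.84; limma, adjusted p = 0.00262) and Ifit2 by 1.95 (SE 0.36, 1.13 to 2.77; limma, adjusted p = 0.00629). Of the 3 genes, 3 were called higher at an adjusted p under 0.05, beside 12.7% of all genes tested, and in all 3 the days did not overlap, beside 29.2% of genes that were higher without overlap. By size of change Ifit3 was at rank 46, Ifit1 at rank 110 and Ifit2 at rank 694 of 12348. Ifit3 passed the filter on low values only through its day 12 groups, since at day 0 its deposited CPM averaged 0.670 for WT and 0.438 for Def6-/-, so that it entered the test only through its rise. Ifit1 and Ifit2 passed it at day 0 as well.

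In Def6-/- cells, Ifit3 rose by 3.43 (SE 0.39, 2.55 to 4.31; limma, adjusted p = 0.000638), Ifit1 by 3.41 (SE 0.55, 2.16 to 4.65; adjusted p = 0.00338 by limma) and Ifit2 by 1.71 (SE 0.36, 0.89 to 2.53; adjusted p = 0.0122 by limma). Again 3 of 3 were called, beside 12% of all genes tested (35.2% were higher without overlap), and their ranks were 131, 139 and 854 of 12348. The call for Ifit2 was the least secure. It was lost in WT cells without day 12 replicate 2 (1.86, limma, adjusted p = 0.0642), and in Def6-/- cells without day 0 replicate 1 (1.48, adjusted p = 0.106), day 12 replicate 1 (1.87, adjusted p = 0.0585) or day 12 replicate 2 (1.55, adjusted p = 0.108). No call for Ifit1 or Ifit3 was lost when a library was left out.

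Because a pseudocount understates the change of a gene with few reads, folds were also taken from the summed reads of each group, with exact intervals that cover counting error only. In WT cells the reads of Ifit3 rose from 11 to 326, a fold of 27.0 (14.9 to 54.7). Those of Ifit1 rose from 33 to 457, a fold of 12.6 (8.87 to 18.6), and those of Ifit2 from 41 to 175, a fold of 3.90 (2.76 to 5.62). For Def6-/- the reads rose from 7 to 112 for Ifit3, from 21 to 206 for Ifit1 and from 34 to 104 for Ifit2. The folds there were 18.7 (8.80 to 47.7), 11.5 (7.32 to 19.0) and 3.58 (2.41 to 5.44), so that in each genotype the interval of Ifit2 lay below those of Ifit1 and Ifit3.

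**Figure D2:**
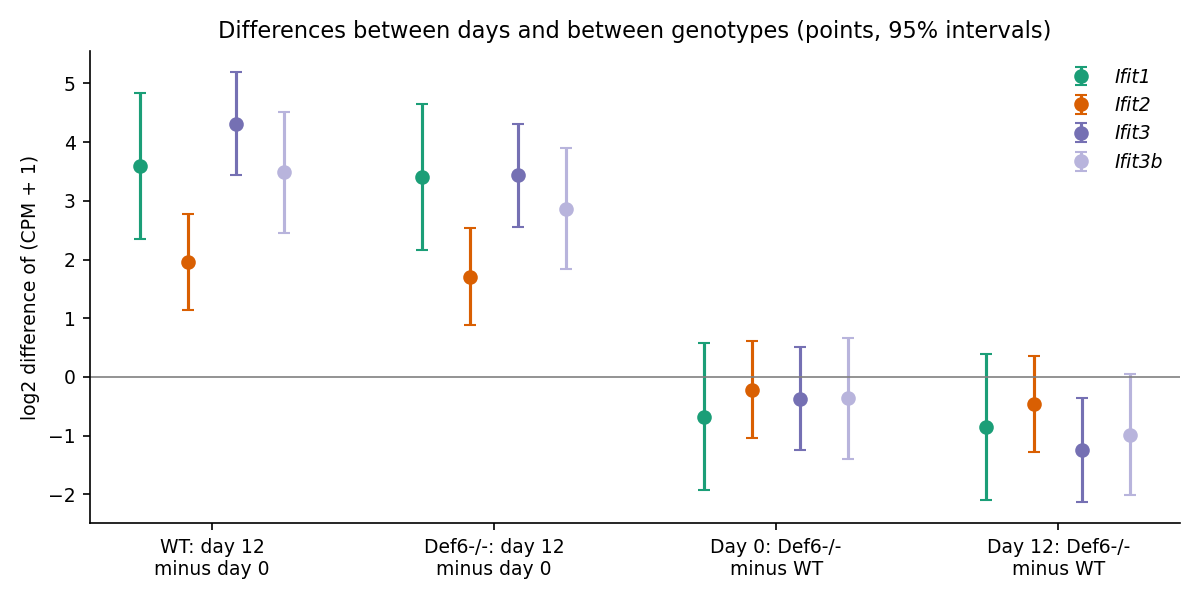
Differences of Ifit1, Ifit2, Ifit3 and Ifit3b on the log2(CPM + 1) scale between days within each genotype (left) and between genotypes at each day (right); points are estimates of the limma fit and bars their 95% intervals. All intervals for the change between days lie above 0, and between genotypes only that of Ifit3 at day 12 (-2.12 to -0.37) leaves out 0.

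The difference in the rise between the genotypes was tested as the interaction of genotype and day. The rise in Def6-/- cells differed from that in WT cells by -0.88 for Ifit3 (95% interval -2.12 to 0.37), by -0.18 for Ifit1 (-1.94 to 1.57) and by -0.24 for Ifit2 (-1.40 to 0.92; limma, adjusted p = 1.0 for each). None of the 3 was called by the rule used for genotypes, which asked for over 1.2-fold and a p below 0.05 before adjustment, beside 0.421% of all genes called lower. The intervals are wide: for Ifit1 they include differences of more than 1.5 log2 units in either direction. Without WT day 0 replicate 2 the interaction of Ifit3 was -1.28 and passed the threshold, and for Ifit1 its sign changed in 4 of the 8 cases in which a library was left out.

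The members did not rise evenly. The genes were compared within each library by the difference of their log2(CPM + 1) values, and Ifit2 minus Ifit3 was 1.39 and 1.56 in WT cells at day 0 and -0.60 and -1.17 at day 12. For Def6-/- it was 1.47 and 1.79 at day 0 and -0.03 and -0.16 at day 12. All 4 day 0 libraries thus had more Ifit2 than Ifit3 on this scale, and all 4 day 12 libraries had less. The difference fell by 2.04 on average over the genotypes, by 2.36 in WT cells and by 1.72 in Def6-/- cells (two-sided exact permutation of days within genotypes, p = 0.0556, the smallest that 36 arrangements allow, 0.0833 adjusted over 3 pairs).

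On the same scale, Ifit1 minus Ifit2 was between -1.23 and -0.25 in the 4 day 0 libraries and between 0.89 and 1.75 in the 4 day 12 libraries. It rose by 1.67 on average, by 1.64 in WT cells and by 1.70 in Def6-/- cells (exact permutation p = 0.0556, adjusted 0.0833). Ifit1 minus Ifit3 changed by -0.72 in WT cells and by -0.03 in Def6-/- cells, and its day 0 libraries (0.23 to 1.52) overlapped with its day 12 libraries (0.35 to 0.86; exact permutation p = 0.278). These differences understate the ratios at day 0 through the pseudocount. The log2 ratio of reads, which does not depend on how libraries are scaled, changed by -2.59 on average for Ifit2 to Ifit3 (-2.83 in WT cells and -2.35 in Def6-/- cells), by 1.85 for Ifit1 to Ifit2 and by -0.74 for Ifit1 to Ifit3. The design cannot reach a p under 0.05 in this test.

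The same shift showed in the division of the family's reads. Of the reads of the 3 genes, Ifit2 took 50% and 47.5% in the WT libraries at day 0, and 22.3% and 14.9% at day 12. In the Def6-/- libraries it took 65.0% and 50% at day 0 and 25.5% and 23.9% at day 12. The share of Ifit3 was 12.5% and 13.1% in WT cells at day 0 and 34.1% and 34.0% at day 12, and in Def6-/- cells 15% and 9.52% at day 0 and 26.1% and 26.9% at day 12. The shares at day 0 rest on 20 to 61 reads per library, and the Wilson 95% interval for Ifit2 in WT replicate 1 ran from 31.4% to 68.6%, whereas at day 12 there were 184 to 518 reads. Ifit1 took 43.6% to 51.2% at day 12 and 20% to 40.5% at day 0.

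**Figure D3:**
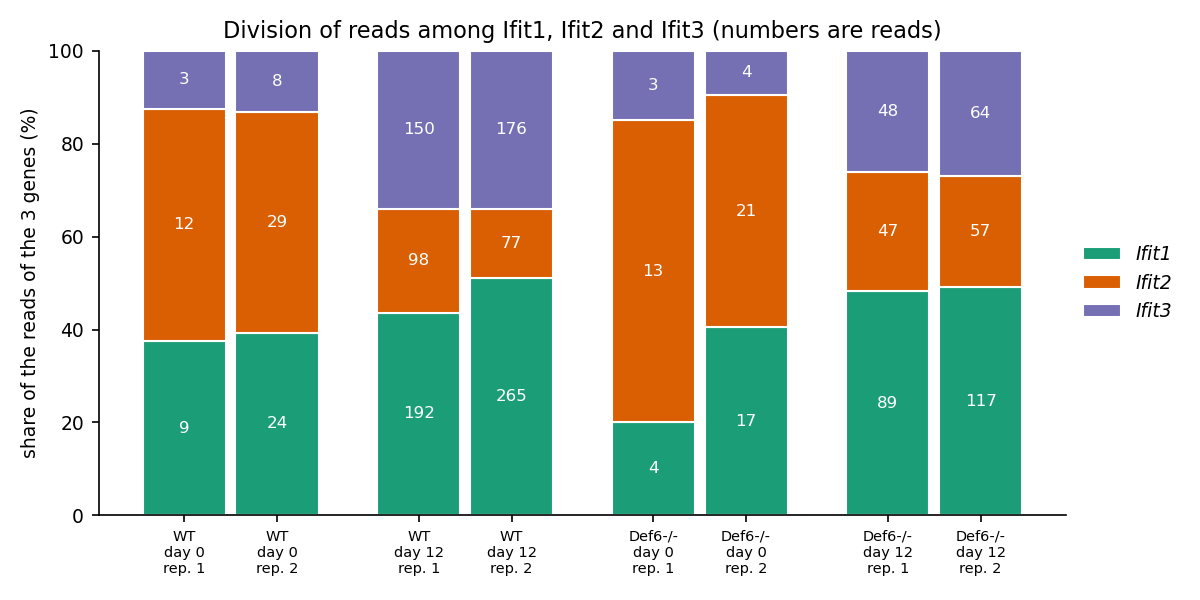
Share of the reads of Ifit1, Ifit2 and Ifit3 that each gene takes in each library, in percent, with the number of reads written in the bars. Ifit2 takes 47.5% to 65.0% in the day 0 libraries and 14.9% to 25.5% in the day 12 libraries, and Ifit3 takes 9.52% to 15% and 26.1% to 34.1%.

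Ifit3 and Ifit3b are near-identical, and counting could have lost or divided their reads. Of all stretches of 50 bases in the Ifit3 transcript, 48.8% occur in no other gene and 51.2% also occur in Ifit3b, against 92.9% in no other gene for Ifit1 and 100% for Ifit2. A count of uniquely aligned reads would thus miss part of Ifit3, in every group alike, and its level per kb is uncertain. Ifit3b had 2 and 2 reads in WT cells at day 0 and 42 and 68 at day 12, and in Def6-/- cells 1 and 1 at day 0 and 16 and 28 at day 12. It took 25.2% of the reads of both copies in WT cells at day 12 (Wilson 95% interval 21.4% to 29.5%) and 28.2% in Def6-/- cells (21.7% to 35.7%), and at day 0 its share of 15 and 9 reads had intervals from 10.9% to 52.0% and from 6.32% to 54.7%. With both copies summed, the fold from day 0 to day 12 was 26.5 (15.9 to 47.8) in WT cells and 20.3 (10.4 to 45.2) in Def6-/- cells. The other copies of the cluster were nearly silent, with at most 5 reads in a library for Ifit1bl1 and at most 4 for Ifit1bl2.

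Between the genotypes at day 0 no IFIT gene was called. The differences of Def6-/- from WT on the log2(CPM + 1) scale were -0.67 for Ifit1 (95% interval -1.92 to 0.57; limma, adjusted p = 0.908), -0.21 for Ifit2 (-1.03 to 0.60; adjusted p = 0.928) and -0.37 for Ifit3 (-1.25 to 0.51; adjusted p = 0.908). Of the 3 genes, 0 were called lower, beside 1.31% of all genes, and 0 had libraries that did not overlap, beside 11.7% of all genes that were lower without overlap. Leaving out a single library moved these values across 0 or past the threshold. Ifit1 was called without WT replicate 1 (-1.20) or Def6-/- replicate 2 (-1.39), and was at 0.046 without Def6-/- replicate 1. Ifit2 was called without WT replicate 1 (-0.70), and was at 0.27 without WT replicate 2 and at 0.020 without Def6-/- replicate 1. Ifit3 was at 0.037 without WT replicate 2.

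At day 12 all 3 genes were lower in Def6-/- cells, and Ifit3 passed the threshold. Its level was 58.4 ± 21.7 normalized CPM for WT and 23.5 ± 5.38 for Def6-/- (SD, n = 2), a difference of -1.24 on the log2(CPM + 1) scale (SE 0.39, 95% interval -2.12 to -0.37; limma, adjusted p = 1.0), at rank 16 from the lowest of all genes. It met the rule used for genotypes but did not pass the adjustment over all genes. Ifit1 differed by -0.86 (-2.10 to 0.39; limma, adjusted p = 1.0) and Ifit2 by -0.46 (-1.28 to 0.36; adjusted p = 1.0). Of the 3 genes, 1 was called lower by this rule, beside 0.591% of all genes. In 3 of 3 the genotypes did not overlap, beside 15.9% of genes that were lower without overlap.

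The calls at day 12 moved with the libraries used and with the estimate of the spread. The call for Ifit3 was lost without WT replicate 2 (-0.86) and without Def6-/- replicate 1 (-1.02). Fitted on the 4 day 12 libraries alone, Ifit1 and Ifit2 passed as well. Ifit3b differed by -0.99 (95% interval -2.02 to 0.04) and was not called, but it passed with CPM as deposited, a pseudocount of 5, edgeR, only the groups compared or the replicate block (-1.10 to -0.77), and without WT replicate 1 (-1.57) or Def6-/- replicate 2 (-1.37). Over all genes, 100 were called higher and 73 lower at day 12, and 120 and 162 at day 0; with CPM as deposited and no composition factor the splits were 119 to 51 and 138 to 53. The comparison of genotypes at day 12 shares its libraries with the comparisons between days.

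The rest of the pathway was described by role, from lists of genes chosen with earlier results of these data known. Of 10 interferon genes, none reached the filter: Ifnb1, which encodes IFNβ, had 2 reads in 1 of the Def6-/- libraries at day 12 and 0 in the others, and the other 9 genes had 0 reads in every library. A count of 0 allows up to 3 reads, or 0.861 to 1.28 normalized CPM in these libraries, so that low expression of the ligands was not detectable at this depth. The 7 receptor chains and Janus kinases were all expressed, and 0 were called in any of the 4 comparisons. Between days, 12.7% and 12% of all genes rose and 5.64% and 4.76% fell. Between genotypes, 1.31% of all genes were called lower at day 0 and 0.591% at day 12, so that 0 of 7 is near these shares. Ifnar1 averaged 94.7 and 104 normalized CPM in WT cells on the 2 days, and 94.1 and 106 in Def6-/- cells. Jak1 averaged 334 and 260 for WT and 369 and 249.9 for Def6-/-.

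Of the 6 subunits of ISGF3 and interferon regulatory factors, 5 rose in WT cells between days and 4 in Def6-/- cells, beside 12.7% and 12% of all genes. In WT and Def6-/- cells, Stat2 rose by 1.99 and 1.18 and Irf9 by 1.65 and 0.96 on the log2(CPM + 1) scale, below an adjusted p of 0.05 in both genotypes, while Irf3, which is activated by phosphorylation and not by induction, changed by -0.03 and 0.03. At day 12, 2 of the 6 were called lower in Def6-/- cells (0.591% of all genes), Irf9 (-0.65) and Irf7 (-1.43). Irf7, named here after its values were seen, was also the 1 of the 6 called lower at day 0 (-1.30, beside 1.31% of all genes).

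Of 9 sensors of viral nucleic acid and their adaptors, 6 rose in WT cells and 1 in Def6-/- cells (12.7% and 12% of all genes rose), and 2 were called lower in Def6-/- cells at day 12 (0.591% of all genes). Ddx58, which encodes the RNA sensor RIG-I, rose by 1.06 in WT cells (limma, adjusted p = 0.0396), and its change in Def6-/- cells was 0.69 (limma, adjusted p = 0.16). Eif2ak2, which encodes the kinase PKR, rose by 1.16 in WT cells (limma, adjusted p = 0.0345), with 0.91 in Def6-/- cells (limma, adjusted p = 0.0873). Mavs, the adaptor of RIG-I, changed by 0.15 and 0.08. The sensor Dhx58, which rose in Def6-/- cells (2.34), and the sensor Zbp1 were those lower at day 12 (-0.89 and -1.41), both named after their values were seen. The interaction of genotype and day was called lower in 1 of the 9, Zbp1 (-1.38), beside 0.421% of all genes. Zbp1 passed the filter only through WT day 12, the group where it was high.

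Of 28 other interferon stimulated effectors tested, 26 rose between days in WT cells and 15 in Def6-/- cells, the medians being 2.46 and 1.65 on the log2(CPM + 1) scale, beside 12.7% and 12% of all genes that rose and medians of -0.0025 and 0.0098 over all genes. The interaction of genotype and day, which tests the difference in the rise, was called lower in 2 of the 28, beside 0.421% of all genes. It was negative in 25 of the 28, with a median of -0.49, beside a median of 0.020 over all genes. However, 4 of the 28 passed the filter only through WT day 12, the group where they were high. Like Ifit3, 10 of the 28 passed the filter only through day 12, and all 10 were among those called in WT cells and 5 among those called in Def6-/- cells. Lgals3bp, a secreted glycoprotein, rose by 2.08 in WT cells and by 1.58 in Def6-/- cells, and Bst2, which tethers viruses to the cell, rose by 3.04 and 3.02. The membrane protein gene Ifitm3, the most abundant of the list, changed by 0.59 (limma, adjusted p = 0.138) and 0.42 (limma, adjusted p = 0.299). Samd9l, an antiviral gene, rose by 1.38 in WT cells (limma, adjusted p = 0.0109) and changed by 0.85 in Def6-/- cells (limma, adjusted p = 0.0765). Only 1 of the 28 rose by more than Ifit3 in WT cells and 3 by more than Ifit1, while 17 rose by more than Ifit2. In Def6-/- cells 2 changed by more than Ifit3, 2 by more than Ifit1 and 13 by more than Ifit2.

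At day 12, 11 of the 28 effectors were called lower in Def6-/- cells and all 28 differences were negative, with a median of -0.77, beside 0.591% of all genes called and a median of -0.00050. Of the 28, 4 (Oas1a, Oas2, Oas3 and Cxcl10, named after their values were seen) passed the filter only through WT day 12, and 2 of these, Oas1a and Oas3, were among the 11. Of the 28, 6 had a more negative difference than Ifit3, 12 than Ifit1 and 23 than Ifit2. At day 0, 3 of the 28 were called lower, with a median of -0.23, beside 1.31% of all genes and a median of -0.021. Of 5 negative regulators of the pathway, 2 rose in each genotype (12.7% and 12% of all genes did). These were Usp18, by 3.04 in WT cells and 2.31 in Def6-/- cells, and Ptpn6, by 2.38 and 2.58. Between the genotypes 0 of the 5 were called at either day, beside 1.31% of all genes called lower at day 0 and 0.591% at day 12. Usp18 passed the filter only through day 12. Usp18 removes Isg15 from proteins and blocks the receptor, and Ptpn6 encodes the phosphatase SHP-1 of blood cells.

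**Figure D4:**
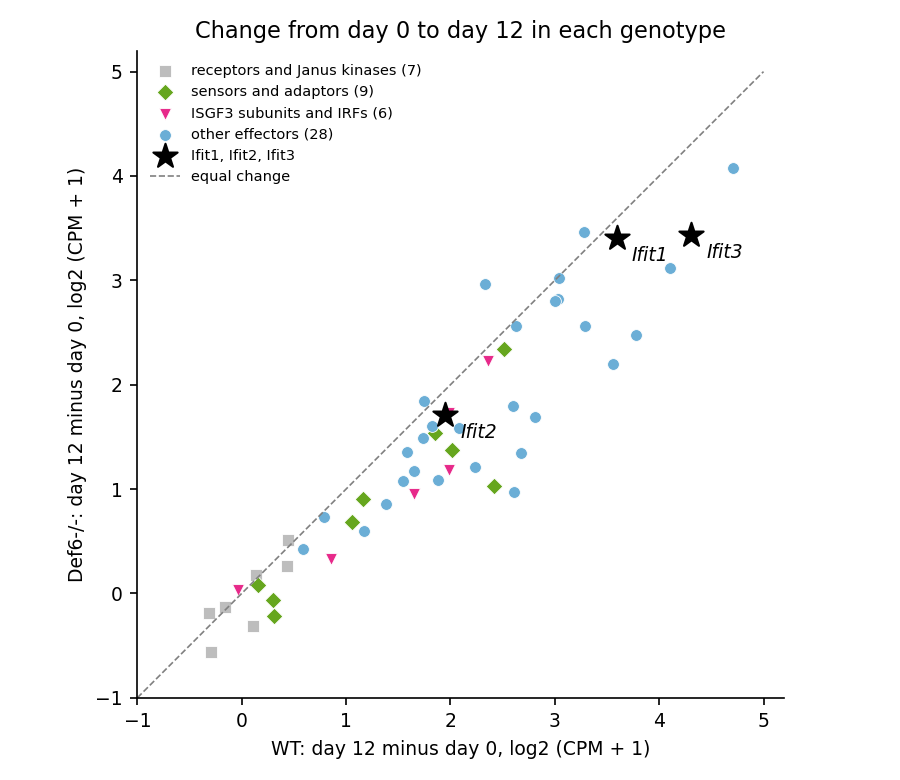
Change from day 0 to day 12 on the log2(CPM + 1) scale in WT cells (horizontal) and Def6-/- cells (vertical) for Ifit1, Ifit2 and Ifit3 (stars) and the tested genes of 4 lists, with the number of genes in the key; the dashed line marks equal change. Ifit3 (4.31 and 3.43) and Ifit1 (3.59 and 3.41) lie near the upper end, Ifit2 (1.95 and 1.71) in the middle, and receptors and Janus kinases near 0.

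None of the genes for enzymes or factors that meet IFIT proteins on messenger RNA was called higher at day 12. Of 4 enzymes of cap synthesis and cap methylation that were tested, 0 were called between days in either genotype or between genotypes. Between genotypes, 1.31% of all genes were called lower at day 0 and 0.591% at day 12. Of 12 subunits tested of the translation initiation factor eIF3, to which IFIT proteins can bind, 4 fell in WT cells and 2 in Def6-/- cells, beside 5.64% and 4.76% of all genes that fell, among them Eif3c, which fell by 1.17 and by 0.98. Of 7 tested neighbours outside the IFIT cluster on chromosome 19, 1 rose and 1 fell in each genotype. Of all genes, 12.7% and 12% rose and 5.64% and 4.76% fell. Lipa, the lysosomal acid lipase, rose by 2.04 in WT cells and by 1.63 in Def6-/- cells. Acta2, which encodes smooth muscle actin, fell by 1.84 and by 1.69.

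Macrophage markers rose with the IFIT genes between days. Of 15 markers with whole reads, 15 rose in WT cells (median 3.44) and 14 in Def6-/- cells (median 3.37), beside 12.7% and 12% of all genes, among them Lyz2, the lysozyme of macrophages, and Mrc1, a mannose receptor. Of the 15, 1 passed the filter only through WT day 12 and was among those called in WT cells. Their summed level was 191 to 425 normalized CPM in the 4 day 0 libraries and 3301 to 6532 in the 4 day 12 libraries, and none of the 15 was at 0 in a group. The summed level of Ifit1, Ifit2 and Ifit3 was 7.52 to 21.6 at day 0 and 75.5 to 217 at day 12. Per 1000 normalized CPM of the markers, that is 22.3 to 87.5 at day 0 and 18.6 to 65.7 at day 12, which overlap. In such bulk RNA, a change in the number of cells of a type and a change in RNA per cell cannot be told apart, and the part of macrophages in the rise of the IFIT genes was not tested.

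Between the genotypes at day 12, 0 of the 15 macrophage markers were called, beside 0.81% of all genes called higher and 0.591% lower. Still, all 15 differences were negative, with a median of -0.32, beside -0.00050 over all genes. Of these, Aif1, named after its values were seen, passed the filter only through WT day 12, the group where it was high. Its deposited CPM averaged 1.66 there and 0.764 at Def6-/- day 12. The summed markers were at 6532 and 3301 in WT cells and at 4061 and 3581 normalized CPM in Def6-/- cells, and these overlapped, whereas the summed IFIT genes were at 126 and 217 in WT cells and at 75.5 and 102 in Def6-/- cells, and these did not. The WT library with more macrophage marker reads had fewer IFIT reads. At day 0, 14 of the 15 differences were negative. The part of these markers in the difference between genotypes was not tested in these data. The study measured ISGs, among them Ifit1 and Ifit2, by quantitative PCR in separate cultures from which hematopoietic cells had been removed. It reports that ISG expression was reduced by lack of Def6 there too. The study also describes marker genes of macrophages and osteoclasts as very low in its RNA sequencing, without difference between genotypes. Summed over the 15 markers on the scale used here, the level at day 12 was 3301 to 6532 normalized CPM, and why the descriptions differ was not tested. In its co-cultures, lack of Def6 in macrophages did not affect the differentiation of WT osteoblasts.

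**Figure D5:**
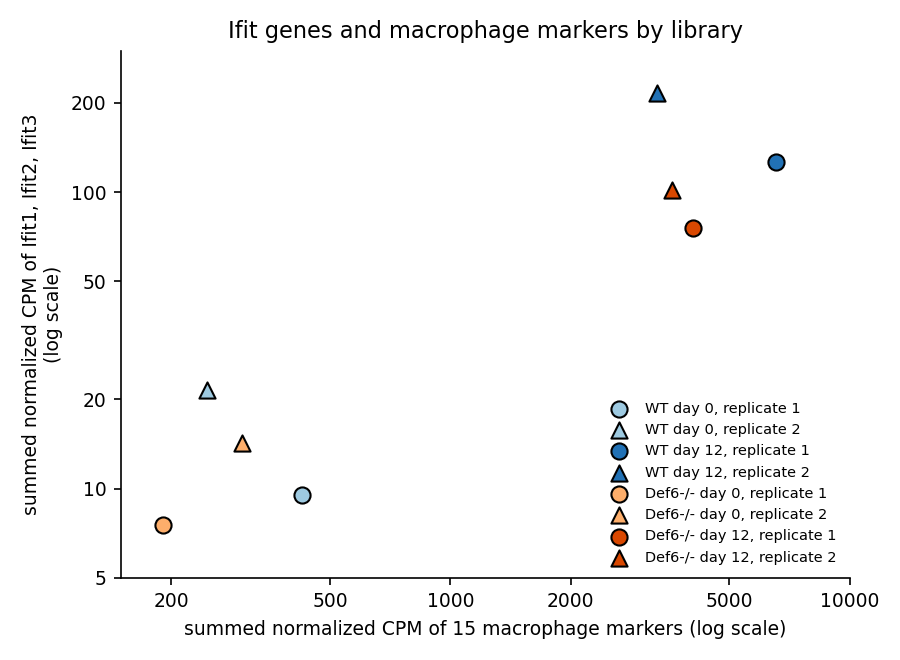
Summed normalized CPM of Ifit1, Ifit2 and Ifit3 against that of 15 macrophage markers in each library (both axes log scale); color marks genotype and day, circles are replicate 1 and triangles replicate 2. The day 12 libraries lie high on both axes, and within day 12 the WT library with the highest IFIT level, at 217, has the lowest marker level, at 3301.

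Markers of other cells also differed between days. Among 6 markers of lymphocytes and plasmacytoid dendritic cells, the latter a main source of type-I IFN in the body, Cd3e, Cd79a, Siglech and Nkg7 had no reads, and Bst2, itself an ISG, was present. Endothelial markers summed to 7.51 to 12.9 normalized CPM at day 0 and to 16.1 to 18.8 at day 12, with Emcn at 0. Adipocyte markers summed to 32 to 39.9 at day 0. At day 12 they summed to 296 and 311 in WT cells and to 411 and 418 in Def6-/- cells. There 4 of the 5 were called higher in Def6-/- cells, beside 0.81% of all genes. However, 4 of the 5 passed the filter only through day 12. Of these, Adipoq and Cfd, named after their values were seen, passed it only through Def6-/- day 12, the group where they were high. Their deposited CPM there averaged 3.32 and 1.59. Between days, 4 of the 5 rose in WT cells and 5 in Def6-/- cells, beside 12.7% and 12% of all genes. Of those called, 3 in WT cells and 4 in Def6-/- cells passed the filter only through day 12. Cartilage markers summed to 1974 to 3820 at day 0 and to 821 to 1217 at day 12. Between genotypes 0 of the 4 were called at either day, beside 1.31% of all genes called lower at day 0 and 0.591% at day 12. At day 12 the 9 osteoblast markers were all at positive differences in Def6-/- cells (median 0.36), with 1 called higher, beside 0.81% of all genes. The part of these cells in the IFIT values was not tested.

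The members resembled each other closely across libraries, with Pearson's r of 0.987 for Ifit1 and Ifit2, 0.979 for Ifit1 and Ifit3 and 0.981 for Ifit2 and Ifit3 on the log2(CPM + 1) scale over the 8 libraries, which share the split by day. Outside the family, the 10 tested genes most like the mean of the members over these libraries were Gm4951 (r = 0.995), Parp14 (0.992), Galnt10, Iigp1, Trim12c, Ssfa2, Il18bp, Lect1, Ptger2 and Chpt1 (0.985). Iigp1, an interferon-inducible GTPase, rose by 4.37 in WT cells and by 3.56 in Def6-/- cells, and Gm4951, by 4.23 and 3.36. Il18bp, the soluble inhibitor of interleukin 18, rose by 2.89 and 2.10. Likeness did not require a like size of change: Ssfa2 rose by 1.12 and 0.90, and Galnt10, a glycosyltransferase of the Golgi, changed by 0.41 (limma, adjusted p = 0.107) and 0.34 (limma, adjusted p = 0.187).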

How the data were processed

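Poly-A RNA from 8 libraries (2 each of WT and Def6-/- cells at day 0 and day 12) was sequenced on an Illumina HiSeq instrument. The authors trimmed with fastp, aligned to mm10 with HISAT2, counted with HTSeq and deposited CPM made with edgeR. Versions, annotation and strand setting are not given in the sources used here, so that reads of overlapping genes may be assigned wrongly. Deposited values are per all reads handled, among them 31.8% to 39.0% outside genes and 21.4% to 34.9% not uniquely aligned, which were left out here.

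Whole reads were recovered from the CPM steps for 99.957% of 114821 positive values (tolerance 0.01 read); 49 values in 9 genes, 4 of them macrophage markers, were not whole, and these markers were left out of list counts and sums. Reads were scaled to reads on genes with TMM factors and tested with limma 3.58.1 (lmFit, eBayes with trend) on log2(CPM + 1), as 4 group means over 8 libraries, with Benjamini-Hochberg adjustment over the 12348 genes whose deposited CPM averaged 1 or more in some group. The script was tested on simulated data. Between days a gene was called at an adjusted p under 0.05, and between genotypes by the rule of the study, over 1.2-fold and a p below 0.05 before adjustment. Differences of log2(CPM + 1) between members within libraries were tested by exact permutation (scipy 1.17.1). Alternatives used edgeR 4.0.16 and DESeq2 1.42.0 on recovered reads in R 4.3.3. Libraries of 1 group differed beyond what read sampling gives, and each counts as a sample (chi-square per gene 4.28 to 31.9). Named genes were the Ifit rows, Def6, up to 4 genes of highest mean CPM per list and the 10 genes most like the members; Bglap, Usp18, Irf7, Bst2 among the blood markers, the markers at 0 and the neighbours and eIF3 subunits that moved were named after their values were seen. The members and lists were chosen with earlier results of these data known. Intervals from reads cover counting error only. Single values of some genes on the lists are not reported here.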

Additional observations from a re-analysis of the deposited data

How the results depend on the processing

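The rise of Ifit1, Ifit2 and Ifit3 was called in both genotypes under all 9 alternatives of scaling, pseudocount, filter, test, libraries in the fit and block, with the largest adjusted p at 0.0376. Between genotypes at day 12, Ifit1 passed the threshold by DESeq2 (-0.94) and with only the groups compared (-0.86), and so did Ifit2 with only the groups compared (-0.46). The interaction of Ifit3 passed with a pseudocount of 5 (-0.97). It was smaller and did not pass with a pseudocount of 0.1 (-0.74), by edgeR (-0.61) or by DESeq2 (-0.61), beside -0.88 in the main fit. The genes called with only the groups compared numbered 1093 in WT cells and 3910 in Def6-/- cells between days (2261 and 2073 with all libraries), and 100 at day 0 and 554 at day 12 between genotypes (282 and 173). Without a filter they were 424 and 459, and 330 for the interaction (139 with it). By DESeq2 they were 85 at day 12 and 44 for the interaction. CPM as deposited moved the median of all genes at day 0 from -0.021 to 0.099. The cause was not tested.

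Same-numbered libraries shared deviations unevenly (correlation 0.327 for the genotypes at day 0, 0.088 for the days in WT cells, 0.152 for the days in Def6-/- cells and 0.037 for the genotypes at day 12), so that the numbers do not establish a pairing. With the replicate block Ifit1 passed the threshold at day 0 (-0.67) and at day 12 (-0.86), and no other call of Ifit1, Ifit2 or Ifit3 changed.

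Without each library in turn, the rise was 3.06 to 4.12 for Ifit1, 1.47 to 2.44 for Ifit2, 3.91 to 4.71 for Ifit3 and 2.90 to 4.08 for Ifit3b in WT cells. It was 2.69 to 4.13, 1.48 to 1.94, 3.21 to 3.66 and 2.48 to 3.25 in Def6-/- cells. Between genotypes the values were -1.39 to 0.046 for Ifit1, -0.70 to 0.27 for Ifit2, -0.77 to 0.037 for Ifit3 and -0.40 to -0.33 for Ifit3b at day 0. They were -1.36 to -0.36, -0.62 to -0.30, -1.62 to -0.86 and -1.57 to -0.40 at day 12. The interaction was -0.90 to 0.53, -0.73 to 0.24, -1.28 to -0.47 and -1.21 to -0.03. The changes of the differences within libraries were 1.43 to 1.91 for Ifit1 minus Ifit2, -0.69 to -0.05 for Ifit1 minus Ifit3 and -2.18 to -1.90 for Ifit2 minus Ifit3. An arm left with 1 library was assumed to vary like the others. With 3 to 29 reads per member at day 0, the depth limits what can be seen before differentiation.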
